A study of Oryza sativa with 4 samples.

Results

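Gene expression in young panicles of the rice line ago2-1 was compared with that in the wild type in the 2014 field season. The comparison rests on 2 of the 4 Affymetrix rice arrays of the study. By their titles, 1 array is labelled ago2-1 and 1 array WT, both of 2014. That season was taken because its pair had the smaller spread of differences. The ago2-1 line carries an antisense construct against OsAGO2, and WT is the cultivar ZH11. Panicles of both genotypes were taken before stage 5 from plants in the field, with no treatment beyond normal conditions. The other 2 arrays, ago2-1 and WT of 2013, are used here only as a check on what was seen in 2014.

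With 1 array per genotype the differences have no replicate check, so no p-values were calculated and every value is a description of these arrays. The line is an antisense line rather than a deletion. Neither the stretch of the gene that the construct covers nor the number of plants behind an array is stated in the labels, and no second line was measured. The text on RNA extraction names a tissue that cannot be rice panicles, so the extraction steps are also taken as not given. In whole panicles, fewer cells of a type and less RNA per cell cannot be told apart.

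Argonaute proteins bind small RNAs and use them to find matching transcripts, which are then cleaved, kept from translation or silenced at the gene. Rice has a large argonaute family, and AGO2 lies beside its close relative AGO3 on chromosome 4. The study's authors connect AGO2 to sugar kinase genes and to the development of the anther. The tapetum is the innermost wall layer of the anther. It feeds the developing pollen and supplies the material of the pollen wall, and its timed breakdown is needed for fertile pollen.

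Values are given as log2 of the deposited intensity, and differences are ago2-1 minus WT, so that a difference of 1 is a doubling on the ago2-1 array. The median intensity was 45.2 on the ago2-1 array and 45.3 on the WT array (5.50 log2 on both), and the sorted values of the arrays differed by at most 0.09 log2. The tissue label was checked against 14 genes of floral and inflorescence meristems. All 14 lay above the array median on both arrays, at 6.43 to 13.31 log2 on the ago2-1 array and 5.67 to 13.10 on the WT array. Among them, the floral organ gene MADS1 lay at 13.31 in ago2-1 and 13.10 in WT, and the meristem gene OSH1 at 11.83 in ago2-1 and 11.78 in WT. All 5 measured genes of leaf or green tissue also lay above the median on both arrays. Their levels were 9.45 to 13.97 on the ago2-1 array and 9.58 to 14.07 on the WT array. The check therefore does not set panicles apart from green tissue. Of 7 genes taken as markers of endosperm, a grain tissue that was not sampled, 3 lay above the median on both arrays. The levels of the 7 were 2.41 to 7.09 on the ago2-1 array and 2.36 to 6.93 on the WT array.

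The targeted gene was not lower on the array of the antisense line. AGO2 (LOC4336991) lay at 10.98 on the ago2-1 array and 10.53 on the WT array of 2014, a difference of 0.45. In 2013 it lay at 9.62 on the ago2-1 array and 9.54 on the WT array (0.08). Whether its probe set lies in the stretch that the construct covers was not tested. Directions below are therefore those of the array labelled ago2-1. Its neighbour AGO3 (LOC4336992) lay at 7.92 on the ago2-1 array and 8.39 on the WT array (−0.47), and at 7.20 in ago2-1 and 7.42 in WT in 2013 (−0.22). Across all 13 measured argonautes the differences ran from −0.47 to 0.45, with AGO3 and AGO2 at the ends.

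Most of the transcriptome lay close to the same level on both arrays. Of 57194 probe sets, 97.3% were within 1.5-fold, and the median size of a difference was 0.13 log2. The SD of the differences was 0.28, against 0.41 between the arrays of 2013, where 92.6% were within 1.5-fold. At least 2-fold higher on the ago2-1 array were 207 probe sets (0.362%), and at least 2-fold lower were 168 (0.294%). At 4-fold the counts were 48 higher (0.0839%) and 33 lower (0.0577%).

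Large differences were fewest among the dimmest probe sets. Of the probe sets at least 2-fold apart, 8 higher and 13 lower ones were among the dimmest 25% of probe sets by mean level, and 50 higher and 41 lower ones among the brightest 25%. In between, 52 higher and 30 lower ones were in the 25% just below the median level, and 97 and 84 in the 25% just above it. Both arrays were above their median for 110 of the 207 higher and 94 of the 168 lower probe sets. For another 68 and 45, 1 array was below its median, and for 29 and 29 both were. The dim side had no background measure, so the size of these differences is not settled. With 1 array below its median the direction can be given. With both below, the direction is not settled either.

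**Figure D1:**
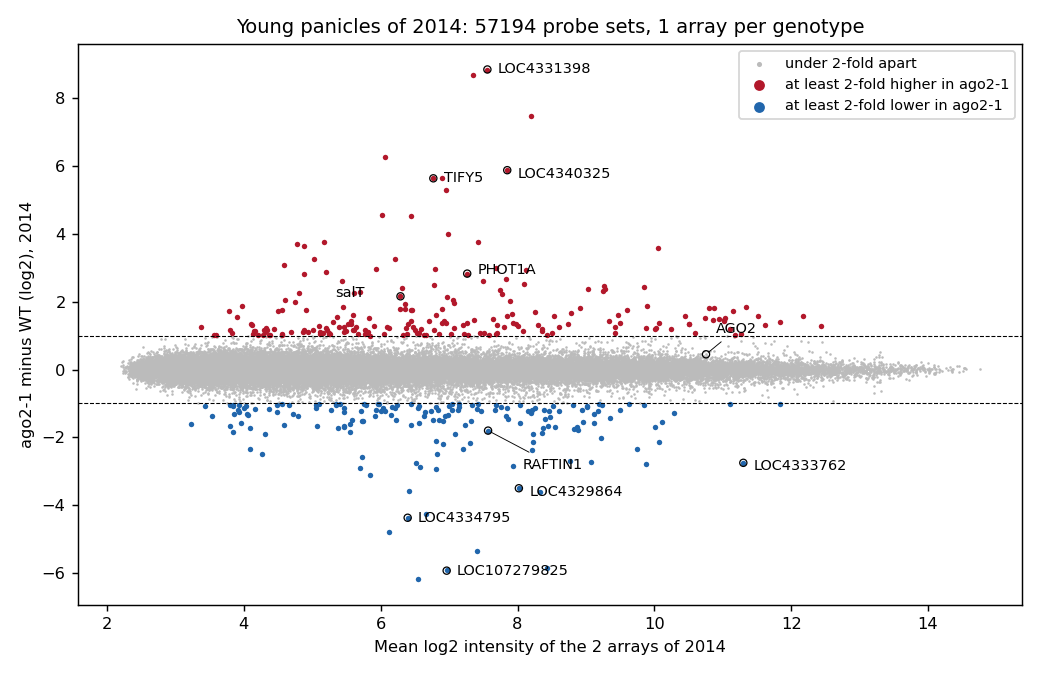
Each point is 1 of 57194 probe sets in young panicles of 2014, with the mean log2 intensity of both arrays on the horizontal axis and the difference, ago2-1 minus WT in log2, on the vertical axis. The 207 red points lie at least 2-fold higher on the ago2-1 array, the 168 blue points at least 2-fold lower, and the targeted gene AGO2 lies between the dashed lines at 0.45.

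The annotation ties 22436 probe sets to 1 gene each, 17905 genes in all, and each gene is represented by its probe set with the highest mean level. By this rule 84 genes were at least 2-fold higher (0.469% of genes) and 78 at least 2-fold lower (0.436%), while 101 of the higher and 80 of the lower probe sets were not tied to a single gene. At 4-fold there were 16 genes in each direction (0.0894% each). Where a gene had further probe sets, these often did not repeat the 2-fold difference, on either side. Of 19 higher genes with others, 7 had another at least 2-fold higher, 4 had all others higher by less and 8 had at least 1 without that sign. Of 7 lower genes with others, 1 had another past 2-fold and 6 had all others lower by less. Some of these hardly differed, as the other of LOC4352063 (−0.06). For the 2606 genes with exactly 2 probe sets, the median gap between their differences was 0.146 and the 95th percentile 0.598.

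Among genes above the array median on both arrays, PHOT1A was the farthest apart on the higher side by the brightest probe set of each gene. By the mean of all probe sets LOC9268613 was farther apart (4.47). PHOT1A (LOC4351240), a phototropin by which plants sense blue light, lay at 8.68 on the ago2-1 array and 5.85 on the WT array, a difference of 2.83. In 2013 it differed by 2.16. The 4 other measured light receptors, the phytochromes PHYA, PHYB and PHYC and the phototropin PHOT2, differed by −0.29 to 0.25.

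Below PHOT1A the 11 next genes differed by 1.85 to 2.67, and apart from DREB1A the annotation gives them no name with a known role. LOC9268613 lay at 9.17 on the ago2-1 array and 6.50 on the WT array (2.67), and its other probe set differed by 6.27. LOC4339960 lay at 9.36 in ago2-1 and 6.83 in WT (2.53), LOC4331781 at 10.49 in ago2-1 and 8.03 in WT (2.46), and LOC4324844 at 11.06 in ago2-1 and 8.62 in WT (2.44). In 2013 these 3 were not higher, with differences of −0.01, −0.66 and −0.77. LOC4337127 lay at 10.47 in ago2-1 and 8.10 in WT (2.37), LOC4337129 at 10.21 in ago2-1 and 7.84 in WT (2.37), LOC4335658 at 8.92 in ago2-1 and 6.58 in WT (2.33) and LOC4331383 at 8.90 in ago2-1 and 6.87 in WT (2.03). Their differences in 2013 were −0.06, 0.71, 3.79 and 0.17. DREB1A (LOC4347620), an AP2 transcription factor that switches on cold and drought response genes, lay at 8.05 on the ago2-1 array and 6.08 on the WT array (1.97), but was lower by the 2013 check (−1.44). LOC4344255 lay at 10.84 in ago2-1 and 8.95 in WT (1.88), and its other probe set differed by 2.29. The brightest probe set of LOC4344255 and the only one of LOC4337127 are of a type that may match several transcripts. LOC4346226 lay at 12.27 in ago2-1 and 10.42 in WT (1.85), while its other probe set hardly differed (0.06). Of these 12 genes 7 had the same sign in 2013, and 3 were also at least 2-fold higher then.

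On the lower side the 12 genes above the median on both arrays differed by −3.50 to −1.70, and all 12 were lower in 2013 too, 9 of them at least 2-fold. LOC4329864 lay at 6.27 on the ago2-1 array and 9.77 on the WT array (−3.50), but its other probe sets differed by only −0.40 and −0.07. LOC4333762, a bright gene, lay at 9.93 in ago2-1 and 12.67 in WT (−2.75). LOC4348937 lay at 7.02 in ago2-1 and 9.40 in WT (−2.38), and LOC4333734 at 6.03 in ago2-1 and 8.37 in WT (−2.34). None of these has a name in the annotation used, so no role can be given.

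Of these 12 lower genes 2 have a name with a known role. RAFTIN1 (LOC4345929), a BURP-domain protein that the tapetum secretes and that pollen needs to mature, lay at 6.67 on the ago2-1 array and 8.47 on the WT array (−1.80; −2.14 in 2013). Cht7 (LOC4338720), a chitinase, an enzyme class that attacks fungal cell walls, lay at 9.15 in ago2-1 and 10.85 in WT (−1.70; −1.29 in 2013). Unnamed genes of the same group were LOC4324244 (−2.15), LOC9269982 (−2.12), LOC4345187 (−2.09), LOC4333720 (−2.03), LOC4346033 (−1.78) and LOC4324060 (−1.73). LOC9269982 was bright on both arrays, at 9.0 in ago2-1 and 11.13 in WT, and differed by −2.55 in 2013. Of LOC4324244 the other probe sets differed by −0.96 and −0.30, and of LOC4333720 the other differed by −0.33.

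Among genes, the largest differences were of those that were dim on 1 array. LOC4331398 lay at 11.98 on the ago2-1 array and 3.14 on the WT array (intensities of 4050 in ago2-1 and 8.8 in WT), a difference of 8.85. Its other probe set differed by 8.70, and the 2013 difference was 8.56. LOC4340325 lay at 10.79 in ago2-1 and 4.91 in WT (5.88), but its other probe set differed by −0.18, so its 2 probe sets disagree. TIFY5 (JAZ2, LOC4342421), one of the JAZ proteins that hold back the response to the hormone jasmonate, lay at 9.59 on the ago2-1 array and 3.95 on the WT array (5.64; 5.90 in 2013). Its only probe set is of a type that may match several transcripts, as are those that give the levels of LOC4331398 and salT. LOC4327182 lay at 6.66 in ago2-1 and 3.41 in WT (3.25), LOC4343487 at 6.73 in ago2-1 and 4.13 in WT (2.61), LOC4333962 at 5.74 in ago2-1 and 3.74 in WT (2.0) and LOC4325479 at 7.33 in ago2-1 and 5.38 in WT (1.94). The salt-induced lectin gene salT (LOC4326471) lay at 7.37 in ago2-1 and 5.21 in WT (2.16), and its other probe set differed by 2.95. All but salT were on the same side of 0 in 2013, and 5 of the 8 were at least 2-fold higher then.

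Of the 8 genes dim on the ago2-1 array, LOC107279825 was the farthest apart, at 4.0 on the ago2-1 array and 9.93 on the WT array (−5.93; −6.23 in 2013). LOC4334795 lay at 4.21 in ago2-1 and 8.58 in WT (−4.37; −4.44 in 2013), and LOC4335569 at 4.28 in ago2-1 and 7.40 in WT (−3.11; −0.75 in 2013). The other 5, LOC4341720 (−2.94), LOC4329395 (−2.87), LOC4325988 (−2.74), LOC4341486 (−2.58) and LOC4339758 (−1.85), differed by less. All 8 were lower in 2013, 6 of them at least 2-fold. None has a name in the annotation.

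**Figure D2:**
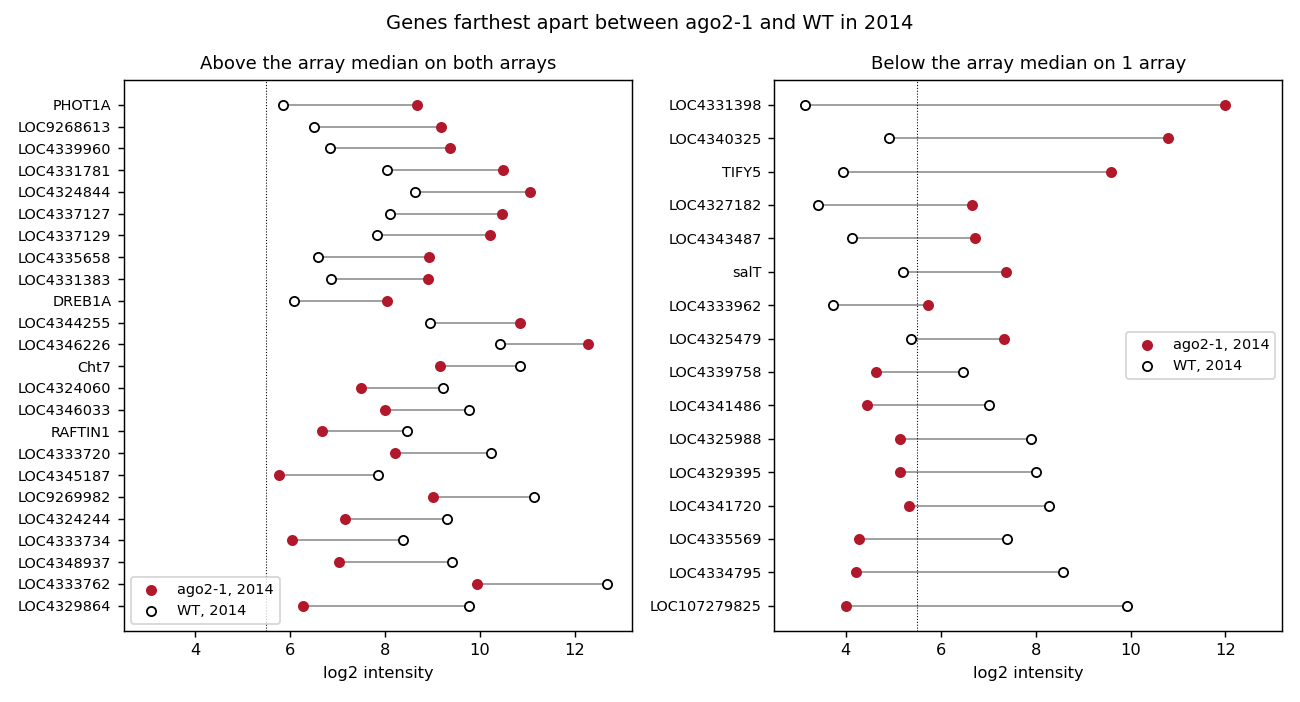
Log2 intensity of the genes farthest apart in 2014, with filled red points for the ago2-1 array, open points for the WT array and a dotted line at the array median of 5.50. The 12 higher and 12 lower genes on the left were above the median on both arrays, from PHOT1A (2.83) down to LOC4329864 (−3.50), and the 8 higher and 8 lower genes on the right were below it on 1 array.

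The arrays of 2013 held the 2014 differences unevenly. Of the 84 genes higher in 2014, 30 were also at least 2-fold higher in 2013, where 195 genes (1.09%) were. That is 35.7% of the genes of 2014 and 15.4% of those of 2013. Another 26 were higher by less than 2-fold, 14 were lower by less than 2-fold and 14 were at least 2-fold lower. The same sign was thus seen for 56 of 84 (66.7%), beside 54.2% of all genes that were above 0 in 2013. Of the 84 genes, 24 lay within 1.5-fold in 2013.

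The lower genes kept their sign far more often. Of the 78 genes lower in 2014, 35 were at least 2-fold lower in 2013, when 567 genes (3.17%) were, which is 44.9% of the genes of 2014 and 6.17% of those of 2013. A further 42 were lower by less, and 1, LOC4329121, stood at 0.00. None was higher. The same sign was seen for 77 of 78 (98.7%), beside 45.4% of all genes below 0 in 2013. Whether the higher and lower genes differ in this was not tested, and the season and the scan of the arrays cannot be told apart between the years.

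**Figure D3:**
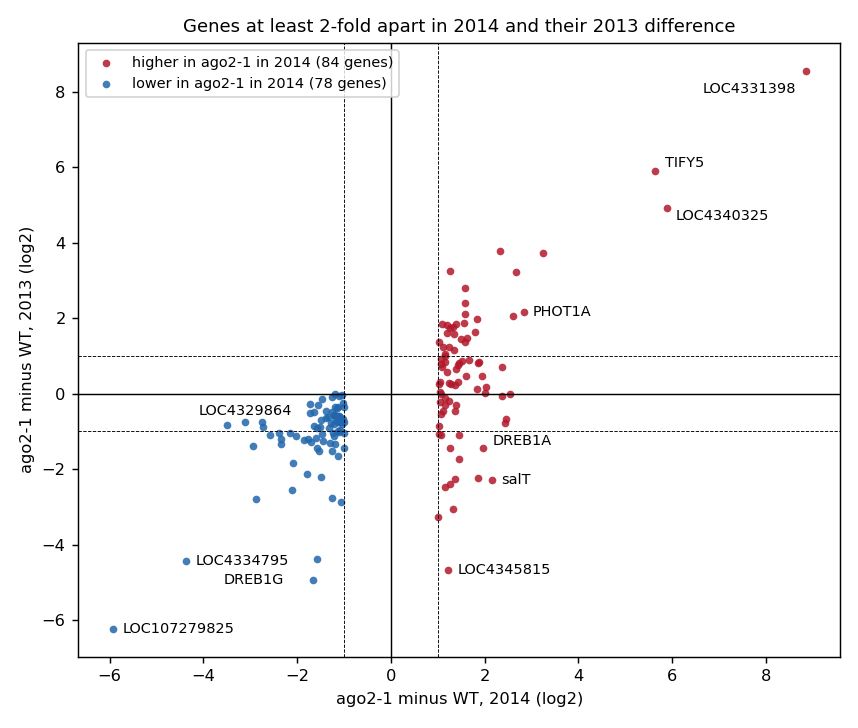
Each point is a gene at least 2-fold apart in 2014, with its 2014 difference on the horizontal axis and its 2013 difference on the vertical axis, both ago2-1 minus WT in log2. Blue points are the 78 lower genes, of which 77 lie below 0 in 2013, and red points are the 84 higher genes, of which 56 lie above 0 and 14 lie below the lower dashed line (2-fold lower).

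Of the 84 genes at least 2-fold higher in 2014, 14 were at least 2-fold lower in 2013, beside 3.17% of all genes. Of the 14, 9 go by a LOC number here. salT lay at 7.37 on the ago2-1 array and 5.21 on the WT array of 2014, and at 7.09 in ago2-1 and 9.38 in WT in 2013. BURP17 (LOC4349896), of the same BURP protein family as RAFTIN1, lay at 6.39 in ago2-1 and 4.53 in WT (1.86), and at 5.54 in ago2-1 and 7.77 in WT in 2013 (−2.24). MT1A (LOC4351213), a metallothionein that binds metal ions, lay at 6.28 in ago2-1 and 4.84 in WT (1.45), against −1.74 in 2013. WRKY71 (LOC4328512), a transcription factor of defence and gibberellin signalling, lay at 8.36 in ago2-1 and 7.04 in WT (1.32), against −3.06 in 2013, but its other probe set differed by 0.04 in 2014. DREB1A is the fifth named gene of this group. LOC4351194, listed with the synonym RIXI of a xylanase inhibitor, differed by 1.26 in 2014 and −1.43 in 2013.

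Genes of the tapetum and pollen wall were mostly lower on the ago2-1 array. Of 13 measured genes 12 lay below 0 in 2014, beside 49.4% of all probe sets, a share over probe sets rather than genes. Of the 12, 10 also lay below 0 in 2013, when 45.4% of all genes did. The list median was −0.25, the lowest of the 40 lists examined, beside 0.00 for all genes. At least 2-fold lower were 2, RAFTIN1 and CYP703A3, beside 0.436% of all genes. The list was chosen with results of these data known, so these values describe it and show nothing particular to it. CYP703A3 (LOC4344594), a hydroxylase that makes fatty acid building blocks of the pollen wall, lay at 7.62 on the ago2-1 array and 9.27 on the WT array (−1.65; −0.86 in 2013). TDR, a bHLH factor that drives tapetum breakdown, lay at 9.78 in ago2-1 and 10.67 in WT (−0.89; −0.67 in 2013).

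Regulators that act around TDR differed by less. GAMYB (LOC4327362), the MYB factor of gibberellin signalling in anthers, lay at 9.82 on the ago2-1 array and 10.25 on the WT array (−0.43). BHLH142 (LOC4325164), a bHLH partner of TDR, lay at 9.59 in ago2-1 and 9.95 in WT (−0.36). PTC1 (LOC4347213), a PHD-finger regulator of late tapetum, was dim at 4.93 in ago2-1 and 5.17 in WT (−0.24), as was the lipid transfer protein gene C6 (LOC4350790) at 3.97 in ago2-1 and 4.30 in WT (−0.33). The receptor kinase MSP1, which sets the number of spore-forming cells early in the anther, lay at 11.07 in ago2-1 and 11.02 in WT (0.04), and its ligand TDL1A at 7.77 in ago2-1 and 7.91 in WT (−0.13). Of 4 tapetum markers among these (RAFTIN1, CYP703A3, TDR and PTC1) the summed level was 10.24 on the ago2-1 array and 11.36 on the WT array. The 5 measured green-tissue markers summed to 14.89 in ago2-1 and 15.04 in WT, with all 5 below 0 (−0.29 to −0.11), whereas all 5 were above 0 in 2013 (0.08 to 0.29). Of the 14 young panicle markers 11 were above 0 in 2014, with a median of 0.12 and a highest value of 0.75 (LAX1). The part of the share of tapetum cells in these results was not tested.

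**Figure D4:**
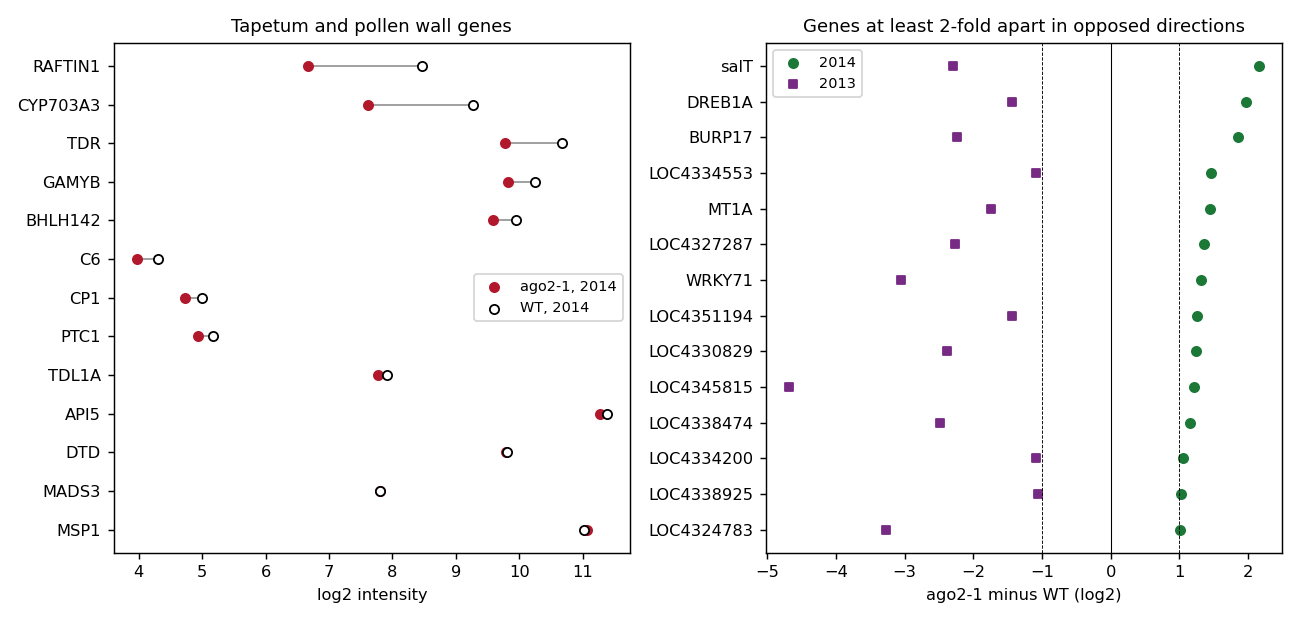
On the left, log2 intensity of the 13 measured tapetum and pollen wall genes on the ago2-1 array (filled) and the WT array (open) of 2014, sorted by difference from RAFTIN1 (−1.80) to MSP1 (0.04). On the right, the difference, ago2-1 minus WT in log2, of the 14 genes at least 2-fold higher in 2014 (circles) and at least 2-fold lower in 2013 (squares), from salT to LOC4324783.

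Across the 40 gene lists, which hold 917 measured genes, 15 genes were at least 2-fold higher and 9 at least 2-fold lower. That is 2.62% of the listed genes, beside 0.905% of all genes. In 24 lists no member was 2-fold apart, and the list medians ran from −0.25 to 0.20. The lists were chosen with results of these data known, so these shares describe the lists and show nothing particular to them.

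Cell division genes lay close to the same level on both arrays. All 6 measured histone genes were slightly above 0, from 0.13 for H2B.10 to 0.26 for H2B.7 and CENH3 (median 0.19), against a list median of 0.01 in 2013. Of 34 kinesins, the motor proteins that move along microtubules, 25 were above 0, with a median of 0.09 and a range of −0.42 to 0.51. Cyclins and their kinases (42 genes) had a median of 0.02, and the mitotic cyclin CYCB1-1 lay at 7.62 on the ago2-1 array and 8.12 on the WT array (−0.50). None of these genes was 2-fold apart.

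Among MADS-box and meristem genes 2 passed 2-fold, RFL and MADS27, both higher, beside 0.469% of all genes. The MADS-box list took every gene of that name, whether or not it acts in flowers. RFL was below the array median on the WT array and MADS27 on both arrays. The size of their differences is therefore not settled, nor for MADS27 the direction. RFL (LOC4336857), the rice counterpart of LEAFY that keeps panicle branches growing, lay at 6.18 on the ago2-1 array and 5.01 on the WT array (1.16; −0.31 in 2013). LAX1 (LOC4327431), a bHLH factor that starts side branches and spikelets, lay at 6.43 in ago2-1 and 5.67 in WT (0.75; 0.26 in 2013). The other meristem genes differed by −0.49 to 0.46, and the median of all 19 was 0.07. Of 32 MADS-box genes with DL, MADS27 (LOC4329771) alone was 2-fold apart, at 5.04 in ago2-1 and 3.85 in WT (1.19; 1.81 in 2013), and its other probe set differed by 0.45. MADS55, of the SVP group, lay at 4.71 in ago2-1 and 5.63 in WT (−0.92). The median of these 32 genes was 0.12, and 21 were above 0.

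Stress transcription factors were spread widely in short lists. These hold only the members matched by name, not whole families. Of all genes, 0.469% were at least 2-fold higher and 0.436% at least 2-fold lower. Of 9 DREB and ERF factors 1 was at least 2-fold higher, DREB1A, and 1 at least 2-fold lower, DREB1G (LOC4330306), at 4.64 on the ago2-1 array and 6.29 on the WT array (−1.66; −4.94 in 2013). DREB1B lay at 6.87 in ago2-1 and 7.68 in WT (−0.80; −2.60 in 2013). Of 8 NAC factors, which act in drought and senescence, NAC071 (OsNAC5) lay at 9.96 in ago2-1 and 8.90 in WT (1.07) and NAC048 (SNAC2) at 8.10 in ago2-1 and 7.08 in WT (1.02). For both, the other probe sets differed by −0.08 to 0.13, and neither was higher in 2013 (−0.02 and −0.85). NAC068 lay at 8.88 in ago2-1 and 8.04 in WT (0.84; 1.25 in 2013). The NAC median was 0.10, and 0.93 among members with a mean above the median. Of 6 WRKY factors WRKY71 alone was 2-fold apart, and the median was 0.20.

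Of 22 stress marker genes measured, 3 were at least 2-fold higher (salT, BURP17 and MT1A), beside 0.469% of all genes. At least 2-fold lower was 1, RAFTIN1, listed here by its BURP name, beside 0.436% of all genes. As said above, the lists were chosen with results known, so such shares show nothing particular to them. The abscisic acid responsive dehydrin genes RAB16B and RAB21 lay at 8.28 and 9.95 on the ago2-1 array and 7.48 and 9.28 on the WT array, differences of 0.81 and 0.66. Of 44 heat shock genes 2 were at least 2-fold lower, beside 0.436% of all genes. Both encode small heat shock proteins, chaperones that bind unfolding proteins. HSP23.2 lay at 6.03 in ago2-1 and 7.28 in WT (−1.25; −0.10 in 2013), and HSP16.9B at 8.47 in ago2-1 and 9.57 in WT (−1.10; −1.01 in 2013). HSP16.9A (−0.67), HSP18.1 (−0.66) and HSP24.1 (−0.62) were lower by less. Over all 44 genes the median was −0.05, and 25 were below 0.

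Of 17 jasmonate repressors TIFY5 alone was 2-fold apart in 2014, beside 0.905% of all genes. The members had a median of 0.08, against −0.60 in 2013, when 7 were at least 2-fold lower, beside 3.17% of all genes. JAZ9 (LOC4331832) lay at 9.30 on the ago2-1 array and 10.28 on the WT array (−0.97; −1.76 in 2013), and JAZ11 at 5.41 in ago2-1 and 5.93 in WT (−0.52; −2.44 in 2013). JAZ10 lay at 9.23 in ago2-1 and 8.84 in WT (0.40; −3.67 in 2013). The 18 jasmonate synthesis genes had a median of 0.00, and none was 2-fold apart in 2014.

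Defence genes stood on both sides of 0. Of 27 measured, 1 was at least 2-fold higher and 2 were lower, beside 0.469% and 0.436% of all genes. Their median was 0.00. PBZ1 (LOC4352491), a pathogenesis-related protein of the PR10 family, lay at 9.32 on the ago2-1 array and 7.74 on the WT array (1.59; 1.37 in 2013). Besides Cht7, the chitinase gene Cht1 (LOC4342115) lay at 3.31 in ago2-1 and 4.56 in WT (−1.25; −1.51 in 2013), dim on both arrays.

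Among genes of sugar use, 1 was at least 2-fold lower and 1 at least 2-fold higher, both also in 2013. In 2014, 0.436% of all genes were at least 2-fold lower and 0.469% at least 2-fold higher. SUS3 (LOC4343910), a sucrose synthase that splits sucrose in growing tissue, lay at 8.46 on the ago2-1 array and 9.77 on the WT array (−1.31; −1.30 in 2013). SUT1 (LOC4331775), a transporter that carries sucrose across the plasma membrane, lay at 9.05 in ago2-1 and 7.97 in WT (1.08; 1.85 in 2013). The 36 genes of sugar transport and starch had a median of −0.12, with 23 below 0. All 7 measured hexokinases, the sugar kinases the study's authors name, lay between −0.32 and 0.22. Their median of 0.01 turned to −0.01 after quantile scaling.

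Other lists held single genes past 2-fold, beside 0.905% of all genes. IAA9 (LOC4331061), an Aux/IAA repressor of auxin response, lay at 6.35 on the ago2-1 array and 5.24 on the WT array (1.11; 1.25 in 2013), while all 53 auxin genes had a median of 0.02. CML17 (LOC9272185), a calmodulin-like calcium sensor, lay at 6.26 in ago2-1 and 7.37 in WT (−1.11; −0.05 in 2013), 1 of 78 calcium genes. The phosphate transporter gene Pht1-4 (LOC4335115) lay at 5.65 in ago2-1 and 4.59 in WT (1.07; −0.54 in 2013), 1 of 80 transporter genes. No member was 2-fold apart among meiosis genes (14 measured, −0.18 to 0.21), clock genes (7, −0.22 to 0.37), expansins (25, −0.38 to 0.37), cellulose synthases (29, −0.45 to 0.33), SPL and GRF factors (22, −0.27 to 0.26) and small RNA machinery other than argonautes (6, −0.17 to 0.38). In that last group RDR4, an RNA-dependent RNA polymerase, lay at 9.89 in ago2-1 and 9.51 in WT (0.38). The 8 photosynthesis genes had a median of −0.14, with 6 below 0, against a median of 0.19 in 2013.

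**Figure D5:**
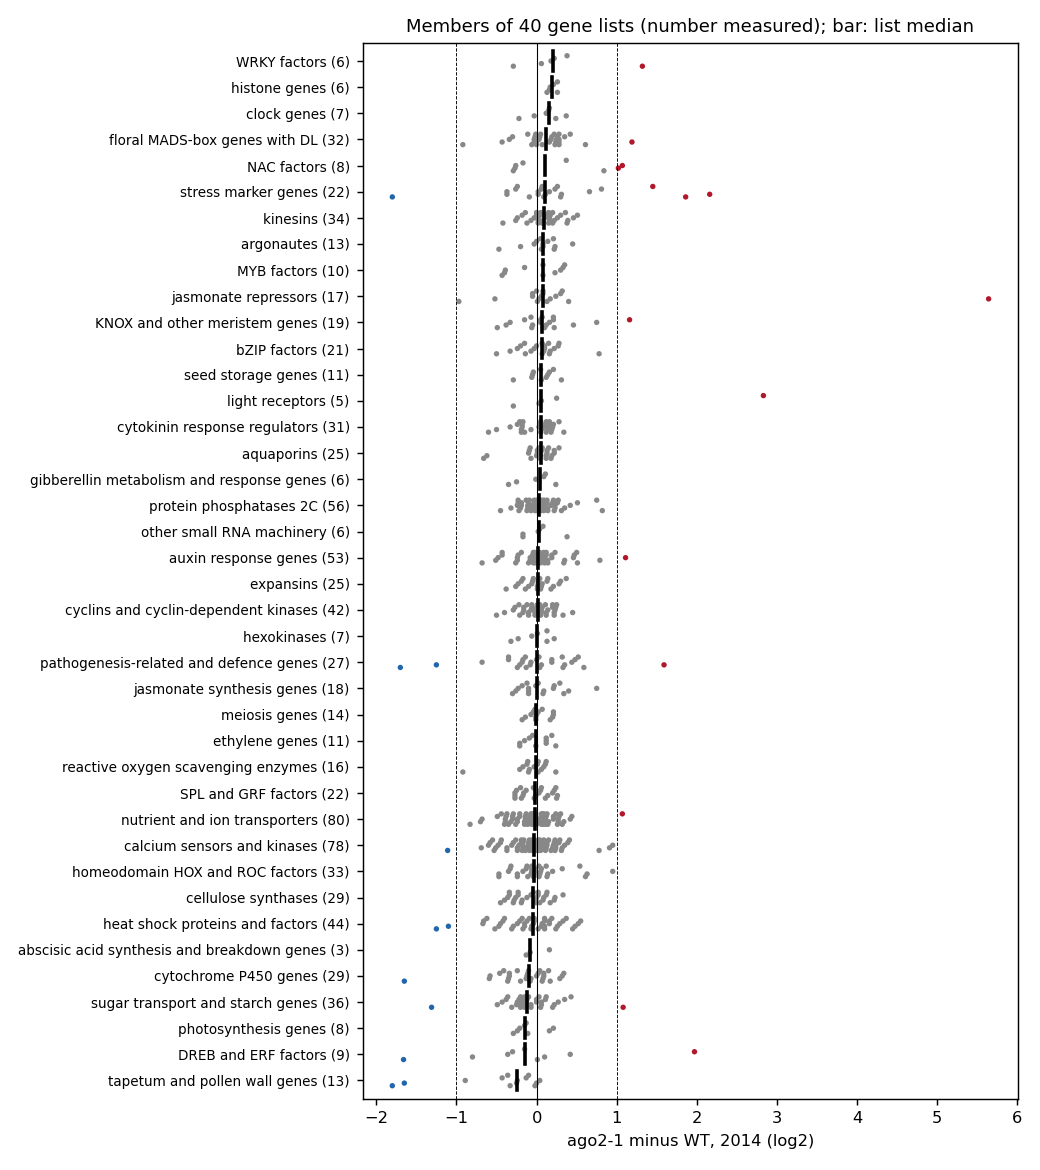
Each point is a measured member of 1 of 40 gene lists, placed by its difference in 2014, ago2-1 minus WT in log2, with the list medians as black bars and the number measured in brackets. Points past the dashed lines are at least 2-fold higher (red, 15 genes) or lower (blue, 9 genes), and the medians run from 0.20 for WRKY factors to −0.25 for tapetum and pollen wall genes.

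A few of the genes 2-fold apart lay side by side. Gene order was read from the RefSeq annotation of assembly ASM3414082v1, with 2 measured genes on either side taken as neighbours. Of the 84 higher genes 8 had a neighbour that was also higher, and of the 78 lower genes 2 had one that was also lower (9.52% and 2.56%). Of all measured genes, 1.80% had a higher gene among their neighbours and 1.73% a lower one. On chromosome 4, LOC4337127 (2.37), LOC4337129 (2.37) and LOC4337133 (1.57) were neighbours, the last at 12.95 on the ago2-1 array and 11.38 on the WT array. On chromosome 6, LOC4340083 (12.28 in ago2-1 and 10.96 in WT, 1.32) and LOC4340084 (11.78 in ago2-1 and 9.95 in WT, 1.83) lay beside the dim LOC4340077 (4.68 in ago2-1 and 3.13 in WT, 1.55), and all 3 were also higher in 2013 (1.77, 1.99 and 1.87). On chromosome 7, LOC4343486 (1.15, but −0.15 by its other probe set) lay beside LOC4343487 (2.61). On chromosome 2, LOC4329864 (−3.50) beside LOC4329865 (−1.11). Whether probe sets of such neighbours bind each other's transcripts was not tested. By chromosome, 0.52% (chromosome 9) to 1.21% (chromosome 6) of measured nuclear genes were 2-fold apart.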

How the data were processed

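RNA of young panicles was measured on 4 Affymetrix rice arrays (1 per genotype and year, biotin label). The values are probe set intensities as the authors deposited them. The submitters' processing notes list RMA without a version. Its output is normally in log2, but the deposited intensities are linear (4.37 to 27773 on the ago2-1 array of 2014), so log2 was taken here with no pseudocount. The arrays of 2013 lie lower, so levels are compared only within a year. The number of arrays limits the precision, and the deposited table holds no background measure.

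The platform annotation ties 22436 probe sets to 1 gene, 95 to several and 34663 to none listed; names came from the RefSeq table of assembly ASM3414082v1 by gene number (all 22436 matched). Differences, counts and lists were computed with Python 3.11.15, numpy 2.4.6, pandas 2.3.3 and statsmodels 0.14.6, tested on simulated data. Fold limits of 2 and 4 were used, and no test was run.

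Named were AGO2 and AGO3, the 12 genes per direction with the largest difference among those above the median on both arrays, the 8 per direction below it on 1 array, the members farthest apart in each list, and genes 2-fold apart in opposed directions in the years. The genes and lists were chosen with earlier results of these data known. Lists were matched by symbol or synonym, and 22 matches to an unrelated gene of the same name were removed after they were seen. Alternatives were median, quantile and lowess scaling, a floor at the 25th percentile, a pseudocount of 16, a limit to brighter probe sets, leaving out cross-matching probe sets, the mean of a gene's probe sets and a fold limit of 1.5. Promoter motifs were not analysed here.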

Additional observations from a re-analysis of the deposited data

Results flagged for a closer look

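The 14 genes below were at least 2-fold higher on the ago2-1 array than on the WT array of 2014 and at least 2-fold lower on the ago2-1 array in 2013. They are 14 of the 84 higher genes of 2014, beside 3.17% of all genes at least 2-fold lower in 2013. Of the 78 lower genes 0 went the opposite way, beside 1.09% of all genes at least 2-fold higher in 2013. The difference between the seasons was not tested, since each has 1 array per genotype.

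The largest of these differences in 2014 were of salT (2.16, and −2.29 in 2013), DREB1A (1.97, and −1.44) and BURP17 (1.86, and −2.24). LOC4334553 was bright on all arrays, at 11.75 on the ago2-1 array and 10.28 on the WT array of 2014 (1.46) and at 10.70 in ago2-1 and 11.79 in WT in 2013 (−1.09). MT1A differed by 1.45 and −1.74. LOC4327287 differed by 1.36 and −2.27, and WRKY71 by 1.32 and −3.06.

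LOC4351194 differed by 1.26 in 2014 and −1.43 in 2013, LOC4330829 by 1.25 and −2.39, and LOC4338474 by 1.15 and −2.48. LOC4345815 had the largest gap between the seasons among the 14, with 1.22 in 2014 and −4.68 in 2013, where it lay at 5.12 on the ago2-1 array and 9.79 on the WT array; its other probe set differed by −0.08 in 2014. LOC4334200 was dim in 2014, at 4.66 in ago2-1 and 3.60 in WT (1.06, and −1.09 in 2013), and its other probe set differed by −0.01. LOC4338925 differed by 1.03 and −1.06, and LOC4324783 by 1.01 and −3.27.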

How the results depend on the processing

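Median, quantile and lowess scaling between the arrays of 2014 changed the counts of probe sets at least 2-fold apart to between 209 and 210 higher and between 166 and 169 lower, beside 207 and 168, and left AGO2 at 0.44 to 0.45. A pseudocount of 16 gave 135 higher and 106 lower, with 106 in the same direction at 2-fold in 2013 (161 without it), which follows from its pull on dim values. A fold limit of 1.5 gave 726 higher and 803 lower. Leaving out cross-matching probe sets gave 148 higher and 143 lower. The limit to brighter probe sets gave 147 and 125, and the floor 186 and 148. Of 54 named genes, 20 moved by more than the SD of all differences (0.28) with the pseudocount, 10 with the mean of a gene's probe sets, among them LOC9268613 (4.47), LOC4329864 (−1.32), LOC4340325 (2.85) and WRKY71 (0.68), and 3 with the floor. None changed direction. Of 40 list medians, that of the NAC factors moved to 0.93 among members with a mean above the median, since 4 members remain, and 3 with a size of at most 0.06 changed sign under 1 alternative each. No paired analysis was possible because the comparison of 2014 holds 1 pair of arrays, and neither array could be left out for the same reason. A fit over both years, with the year as a block, was not run here.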

Other observations

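Some genes at least 2-fold apart in 2014 belong to none of the lists but carry a synonym in the annotation, and they are named here after their values were seen. LOC4328654 (SPX2), of the SPX proteins that sense phosphate, lay at 7.98 on the ago2-1 array and 9.06 on the WT array (−1.08; −0.96 in 2013). LOC4332400 (LAC10), of the laccases that oxidise lignin precursors, lay at 7.14 in ago2-1 and 8.52 in WT (−1.38; −0.64 in 2013). LOC4346640 (BRL1), a receptor kinase of the brassinosteroid receptor family, was dimmer, at 4.83 in ago2-1 and 5.87 in WT (−1.04; −0.04 in 2013). On the higher side, LOC4339379 (OsC3H37), of the CCCH zinc finger family, lay at 11.24 in ago2-1 and 9.66 in WT (1.59; 2.10 in 2013), bright on both arrays. LOC4338560 (BGLU22), a beta-glucosidase, lay at 5.66 in ago2-1 and 4.56 in WT (1.10; −0.47 in 2013).

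Several bright genes without a name were also 2-fold higher. LOC4333735 lay at 13.07 on the ago2-1 array and 11.80 on the WT array (1.27; 3.25 in 2013), but its other probe set differed by −0.07. LOC4332595 lay at 11.50 in ago2-1 and 9.98 in WT (1.52; 0.87 in 2013). LOC4336725 lay at 11.74 in ago2-1 and 10.29 in WT (1.44; 0.77 in 2013). On the lower side, LOC4334518 lay at 11.32 in ago2-1 and 12.35 in WT (−1.02; −0.68 in 2013).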
